A study of Sus scrofa with 8 samples.

Results

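The myogenic bHLH factors MYOD1, MYF5, MYF6 and MYOG are the transcription factors that commit cells to the muscle lineage and drive their differentiation. Open chromatin around their genes was described in pig muscle satellite cells, the stem cells of skeletal muscle, using ATAC-seq, an assay that marks accessible DNA by transposase insertion. The series holds 8 libraries in 4 groups of 2, CBP 60 h, WT 60 h, CBP 0 h and WT 0 h, with 60 h labelled as differentiation and 0 h as proliferation. All groups carry the same tissue, cell type and cell line labels, and the line is given as C3H although the organism is pig. The protocol is worded alike for every library and names SGC-CBP30, an inhibitor of the bromodomains of CBP and EP300, which are acetyltransferases, at 5 uM/ml, for 48 h in proliferating and 60 h in differentiating cells. Which libraries received it is not stated, and CBP and WT are used here only as group names from the labels. Whether the 2 libraries of a group are separate cultures is not stated either, so p-values cover the spread among libraries, which may be technical.

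Peaks of the 8 lists were merged wherever they overlapped by 1 bp, and a merged region was linked to a protein-coding gene when that gene had the nearest gene end, within 50 kb. This gave 30 regions for the 4 genes, of 114950 linked regions and 178498 regions in all. MYOG had 10 of them, MYOD1 8, MYF6 7 and MYF5 5. The regions are numbered within each gene from the lower to the higher coordinate on Sscrofa11.1. The gene table gives no strand, so gene ends are called lower and upper.

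The 4 factors share a basic region that contacts DNA and a helix-loop-helix through which they pair with E proteins. The pairs bind E-boxes in the regulatory DNA of muscle genes. In mouse, Myf5 and Myod1 act early, in determination and in proliferating myoblasts, Myog is required for terminal differentiation, and Myf6, also called Mrf4, is the main factor of mature fibres. CBP and EP300 are coactivators that MyoD recruits to its targets. Myf5 and Myf6 are neighbours in vertebrate genomes and are known in mouse to share a long stretch of enhancers.

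MYOD1 lies on chromosome 2 from 41422522 to 41424236, and MYOG on chromosome 9 from 113783233 to 113785312. MYF5 lies on chromosome 5 from 100753440 to 100755558 and MYF6 from 100762918 to 100764771, with 7360 bp between them. Both lie inside the span of the predicted gene LOC110260827. Of the 30 regions, 9 were within 1 kb of a gene end, a share of 30%, against 16.6% of all linked regions. Called in all 8 libraries were 7 regions, or 23.3%, against 31.8% of all linked regions. Called in 1 library only were 6, or 20%, near the 21.4% of all linked regions.

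The lists held 82696 to 88871 peaks in the 60 h libraries and 121757 to 135528 in the 0 h libraries on chromosomes 1 to 18 and X, and relative depth was 1 to 1.21 at 60 h and 1.43 to 2.08 at 0 h. Fewer calls at 60 h were thus found across the genome, and not at these genes alone. With peaks scaled to the depth of the shallowest library, there were 82696 to 88558 at 60 h and 120971 to 129457 at 0 h. The cause of this difference was not tested. As a check of the cell type label, 5 to 7 of 7 satellite cell and myoblast markers had a call within 1 kb of a gene end in each library, and PAX7, MYF5, MYOD1, CDH15 and DES had it in all 8. Endothelial markers had 2 or 3 of 4 called, immune markers 2 or 3 of 4 and fibroblast markers 3 or 4 of 5. PECAM1 and KDR (endothelial), CD68 and CD3E (immune) and LUM, COL1A1 and PDGFRB (fibroblast) had a call in all 8 libraries. CDH5, CSF1R and PDGFRA had no call in any library, and the part of other cell types in the results below was not tested. In bulk libraries, fewer cells with an open site and less access to it in each cell cannot be told apart.

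The peak lists hold no read counts, but the authors' fold and −log10 p together give the whole number of fragments at each summit (the summit pileup) and the background the peak caller expected there from a wider window (the local background). The size of that window is not given in the sources used here. Each is printed as a ratio to the library's median over the 50575 regions called in all 8 libraries, called relative pileup and relative background, so that 1 is a typical constitutive region. Differences are therefore relative to that median, which itself stood lower over the library's floor, its most frequent background, at 60 h than at 0 h. On the log2 scale it was 0.98 to 1.11 at 60 h and 1.28 to 1.33 at 0 h for the background, and 3.77 to 4.02 at 60 h and 4.05 to 4.23 at 0 h for the pileup. A region with no call has no value, which is not a value of 0. Where several called stretches lie close together, the local background is high and a peak needs more fragments to be called.

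**Figure D1:**
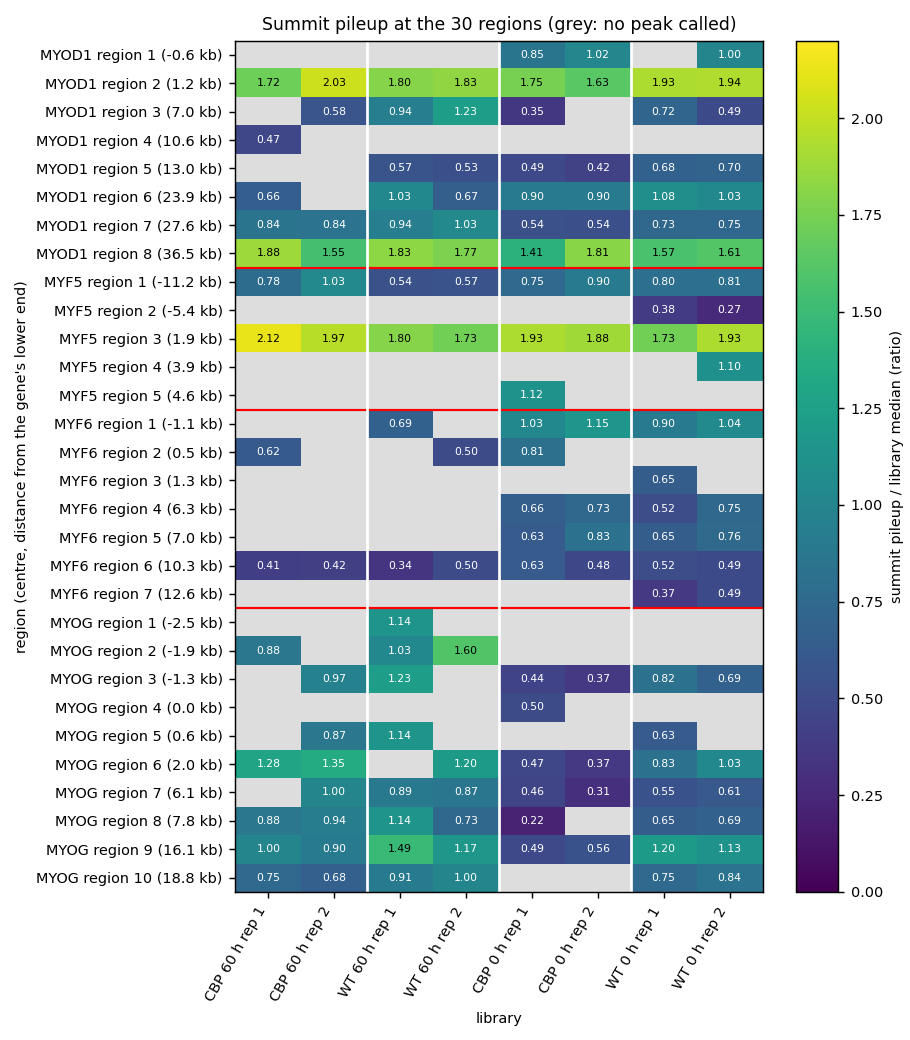
Summit pileup divided by the library's median (ratio, colour and printed value) at the 30 regions, in rows by gene with the centre's distance from the gene's lower end in kb, and the 8 libraries in columns. Grey cells have no call. MYOD1 regions 2 and 8 and MYF5 region 3 are at 1.41 or above in every library. Among called values, MYOG regions 3 and 6 to 9 are lowest in the CBP 0 h columns. The relative pileup needed for a call, at the highest local background around MYOG, was also lowest there.

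At the MYOG regions called in both 0 h groups, the summit pileup at 0 h was lower in CBP than in WT. At MYOG region 9 it was also higher in CBP 60 h than in CBP 0 h. MYOG region 9 (chromosome 9, 113798499 to 113800140) lies 13187 bp beyond the upper end of MYOG and was the only MYOG region called in all 8 libraries. Its relative pileup was 1.00 and 0.903 in CBP 60 h, 1.49 and 1.17 in WT 60 h, 0.485 and 0.558 in CBP 0 h, and 1.2 and 1.13 in WT 0 h. The CBP 0 h values lay below those of the other 6 libraries, and the CBP 60 h values also lay below both WT groups.

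In a limma fit over the 50575 regions called in all libraries, with Benjamini-Hochberg adjustment over all of them, the log2 pileup of MYOG region 9 was -1.17 ± 0.175 (SE) in CBP 0 h relative to WT 0 h, a ratio of 0.446 (adjusted p = 0.000147). Among all 50575 regions, 1.34% were lower in that comparison. In CBP, the pileup was 1.83 times as high at 60 h as at 0 h (log2 0.87 ± 0.175, adjusted p = 0.00015), where 30.7% of all regions were higher. Both calls held in all 13 alternatives tried, although floor scaling lowered the time difference in CBP to log2 0.51 (adjusted p = 0.0335). In WT the pileup was 1.13 times as high at 60 h as at 0 h, which did not pass (log2 0.17, 95% interval -0.18 to 0.53, adjusted p = 0.484). At 60 h, CBP against WT gave a ratio of 0.722 (log2 -0.47 ± 0.175, adjusted p = 0.0490), and 10.3% of all regions were lower. That call was lost in 7 of the 8 fits that left out 1 library, with the exception of WT 60 h replicate 2, with adjusted p up to 0.350 without WT 60 h replicate 1. It was also lost under quantile normalization (adjusted p = 0.0854) and without a trend (adjusted p = 0.0615). The time effect was larger in CBP than in WT by 0.70 ± 0.247 on the log2 scale, which did not pass (adjusted p = 0.108).

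At MYOG region 9 the local background, which covers a wider window than the summit, put the groups in the same order by their means as the pileup, from the highest WT 60 h, WT 0 h, CBP 60 h and CBP 0 h. The relative background there was 1.15 and 1.1 in CBP 60 h, 1.77 and 1.49 in WT 60 h, 0.471 and 0.569 in CBP 0 h, and 1.30 and 1.21 in WT 0 h. Within each time the CBP libraries were below the WT libraries with no overlap. Between the times, 60 h was above 0 h within CBP and within WT. At MYOG regions 6, 7 and 8, nearer the gene, CBP 60 h was instead above WT 0 h, with mean relative backgrounds of 2.82, 2.34 and 1.26 in CBP 60 h (1 library at region 7) and 2.25, 1.5 and 0.852 in WT 0 h. Divided by the floor, region 6 overlapped (5.15 and 6.18 in CBP 60 h, 5.61 and 5.47 in WT 0 h). Region 7 kept the order (4.78 against 3.73 and 3.68), as did region 8 (2.14 and 2.92 against 2.11 and 2.09). The local background was chosen as a measure after the data were seen, and it shares fragments with the pileup, so it does not count as separate support.

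Fitted in the same way, the local background at MYOG region 9 was 0.413 times as high in CBP 0 h as in WT 0 h (log2 -1.28 ± 0.119, adjusted p = 2.13e-05), where 2.88% of all regions were lower. It was 2.17 times as high in CBP 60 h as in CBP 0 h (log2 1.12 ± 0.119, adjusted p = 2.05e-06), where 31.5% of all regions were higher. In CBP 60 h it was 0.693 times the WT 60 h value (log2 -0.53 ± 0.119, adjusted p = 0.00280), where 14.5% of all regions were lower. These 3 calls held in all 14 alternatives tried. The increase between the times in WT was 1.30-fold (log2 0.37 ± 0.119, adjusted p = 0.0229, with 23.1% of all regions higher). It ended when libraries were scaled by their genome-wide background floor (log2 0.16, adjusted p = 0.401), under quantile normalization (adjusted p = 0.0841), and without WT 60 h replicate 1, WT 0 h replicate 1 or WT 0 h replicate 2 (adjusted p = 0.199, 0.0735 and 0.150). The time effect in CBP exceeded that in WT by 0.75 ± 0.168 on the log2 scale (adjusted p = 0.0138, with 2.46% of all regions higher). That difference was lost under quantile normalization (adjusted p = 0.0766), under floor scaling (adjusted p = 0.105), and without WT 60 h replicate 2, CBP 0 h replicate 1 or WT 0 h replicate 1 (adjusted p = 0.0532, 0.0539 and 0.0752).

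**Figure D2:**
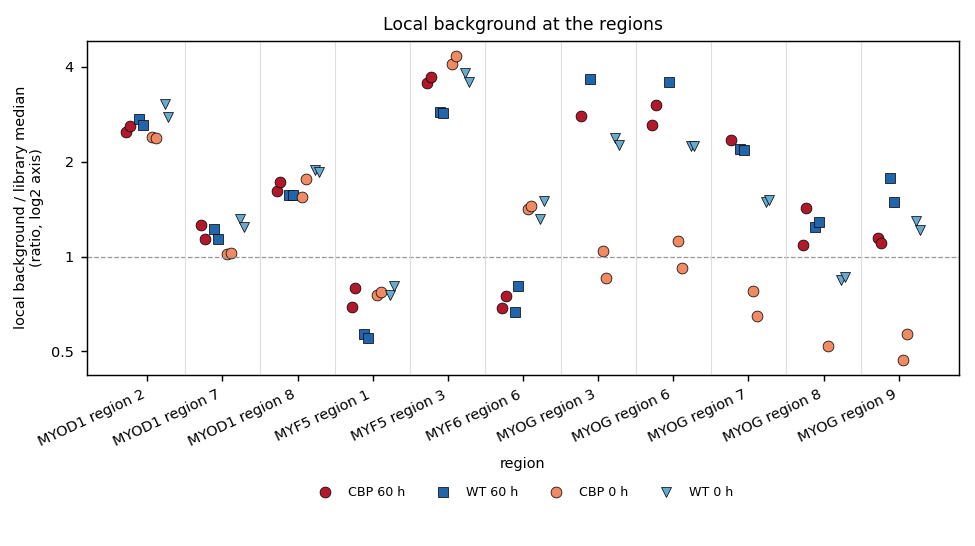
Local background divided by the library's median (ratio, log2 axis) at the 7 regions called in all 8 libraries and at MYOG regions 3, 6, 7 and 8, each point 1 library, coloured by group. Points are missing where there was no call. In every MYOG column CBP 0 h is lowest, and at MYF6 region 6 the 60 h libraries (0.668 to 0.808) lie below the 0 h libraries (1.31 to 1.51).

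The other MYOG regions showed where in the locus the lower CBP 0 h values held. MYOG region 10 (chromosome 9, 113801613 to 113802430), 16301 bp from the upper end, had a relative pileup of 0.750 and 0.677 in CBP 60 h, 0.914 and 1.00 in WT 60 h, and 0.750 and 0.836 in WT 0 h. It was called in neither CBP 0 h library, where a relative pileup of 0.309 and 0.288 would have sufficed for a call at the highest local background measured around MYOG. The background at region 10 itself is not known in these libraries. It counted as opened in CBP 60 h against CBP 0 h and as closed in CBP 0 h against WT 0 h, and did so too with peaks scaled to 1 depth and with equal peak numbers in all libraries.

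MYOG region 6 (chromosome 9, 113784734 to 113785790) overlaps the upper end of the gene. Its relative pileup was 1.28 and 1.35 in CBP 60 h, 1.2 in WT 60 h replicate 2, 0.471 and 0.365 in CBP 0 h, and 0.833 and 1.03 in WT 0 h. In WT 60 h replicate 1 it had no call, although that library had a call at MYOG region 5 inside the gene, with a relative pileup of 1.14. At 0 h, where all 4 libraries had a call, both CBP values were below both WT values. The relative background there was 2.62 and 3.02 in CBP 60 h, 3.57 in WT 60 h replicate 2, 1.12 and 0.920 in CBP 0 h, and 2.24 and 2.25 in WT 0 h.

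MYOG region 2 (chromosome 9, 113780980 to 113781652), 1581 bp below the lower end, was called at 60 h only. Its relative pileup was 0.875 in CBP 60 h replicate 1 and 1.03 and 1.60 in WT 60 h, and it was the only one of the 30 regions that opened in WT 60 h against WT 0 h. Of all regions 0.654% opened in that comparison, against 3.33% of the 30. At an authors' −log10 q of at least 5, or with equal peak numbers, it did not count as opened. The next region toward the gene, MYOG region 3 (1068 bp from the lower end), was called in both libraries of each 0 h group, with 0.441 and 0.365 in CBP and 0.817 and 0.687 in WT. At 60 h it was called in CBP replicate 2 with 0.968 and in WT replicate 1 with 1.23.

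MYOG region 7 had a relative pileup of 1.00 in CBP 60 h replicate 2, 0.886 and 0.867 in WT 60 h, 0.456 and 0.308 in CBP 0 h, and 0.550 and 0.612 in WT 0 h. MYOG region 8 had 0.875 and 0.935 in CBP 60 h, 1.14 and 0.733 in WT 60 h, 0.221 in CBP 0 h replicate 1, and 0.650 and 0.687 in WT 0 h. Around MYOG the lowest relative pileup that could be called, at the highest local background measured, was 0.75 to 0.9 at 60 h, against 0.288 and 0.309 in CBP 0 h and 0.552 and 0.567 in WT 0 h. Low values at 60 h could thus go uncalled, and no order between the times is read from the called values of regions 6 to 8. MYOG regions 1 and 4 were called in 1 library each, and MYOG region 5 in 3.

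**Figure D3:**
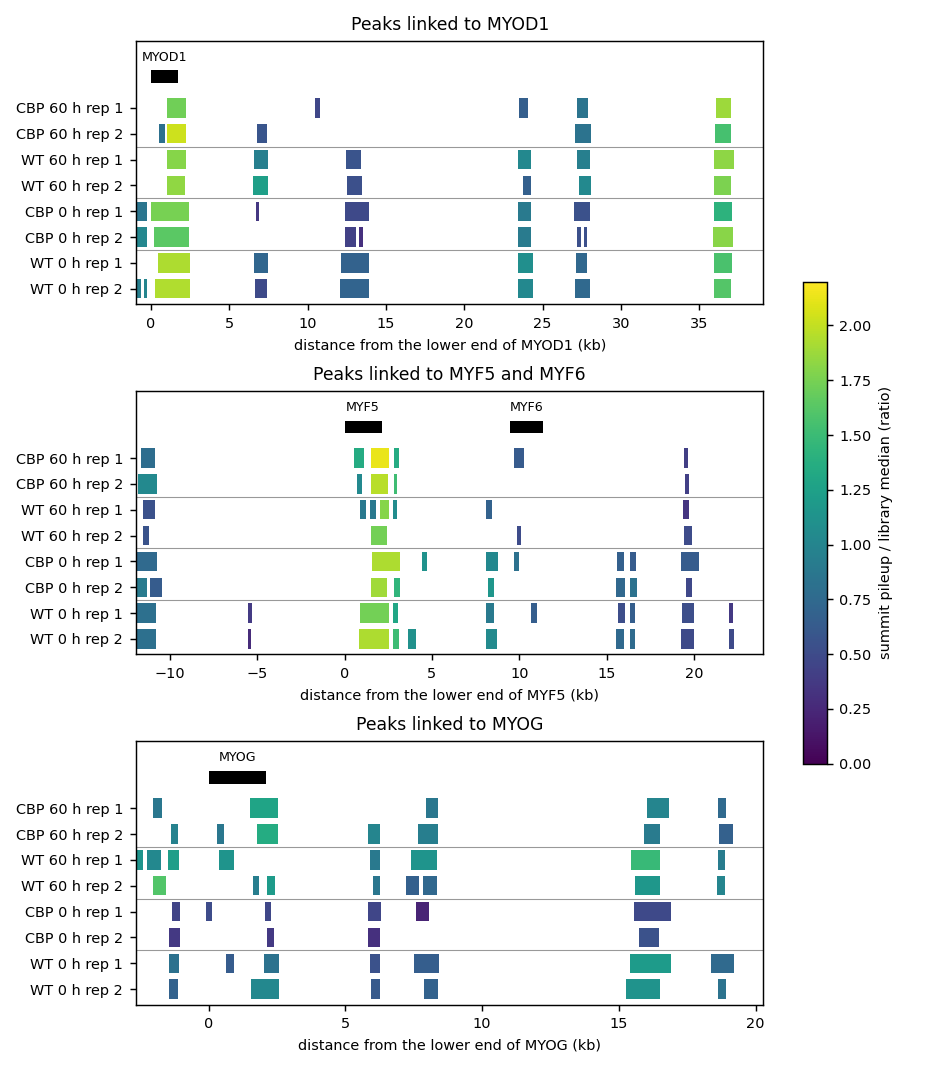
Called peaks of each library (rows, CBP 60 h at the top) at the MYOD1, MYF5 with MYF6, and MYOG loci, by distance from the gene's lower end in kb, with black bars for the genes and colour for the summit pileup divided by the library's median (ratio). The middle panel counts from the lower end of MYF5. The pair of narrow stretches 4200 and 4973 bp beyond the upper end of MYF6 is called in the 4 libraries at 0 h and in none at 60 h, as are 5.68% of all regions.

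At MYF6, the main factor of mature fibres, the local background beyond the gene was lower at 60 h than at 0 h. MYF6 region 4 (chromosome 5, 100768971 to 100769463) and MYF6 region 5 (100769744 to 100770189) lie 4200 and 4973 bp beyond the upper end of the gene. Both were called in all 4 libraries at 0 h and in 0 at 60 h, a pattern found at 6.67% of the 30 and at 5.68% of all regions, so that the share among the 30 was near that of the genome. The reverse pattern was found at 0 of the 30 and 0.131% of all regions. Relative pileup at region 4 was 0.662 and 0.731 in CBP 0 h and 0.517 and 0.746 in WT 0 h. At region 5 it was 0.632 and 0.827 in CBP 0 h and 0.650 and 0.761 in WT 0 h. A call at 60 h would have needed 0.438 and 0.323 in CBP and 0.543 and 0.467 in WT, at the highest local background measured around MYF6 in each library. That background comes from called peaks, none of them at region 4 or 5, and in CBP 60 h replicate 2 from region 6 alone. The background at regions 4 and 5 is not known at 60 h, so a call there could have needed more. With equal peak numbers in all libraries, region 4 was called in 1 library of each 0 h group and region 5 in 1 CBP 0 h and 2 WT 0 h libraries, and neither was called at 60 h.

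MYF6 region 6 (chromosome 5, 100772686 to 100773702), 7915 bp beyond the upper end, was called in all 8 libraries with low pileups. Relative pileup was 0.406 and 0.419 in CBP 60 h, 0.343 and 0.5 in WT 60 h, 0.632 and 0.481 in CBP 0 h, and 0.517 and 0.493 in WT 0 h. Neither time comparison of the pileup passed (adjusted p = 0.168 in CBP and 0.402 in WT). Its relative background was 0.687 and 0.748 in CBP 60 h, 0.668 and 0.808 in WT 60 h, 1.42 and 1.44 in CBP 0 h, and 1.31 and 1.51 in WT 0 h. The times did not overlap, and the 60 h values were 0.501 times the 0 h values in CBP (log2 -1.0 ± 0.118, adjusted p = 6.15e-06) and 0.522 times in WT (log2 -0.94 ± 0.118, adjusted p = 2.98e-05). Over all regions the share lower at 60 h was 15.5% in CBP and 10.5% in WT. Both calls held in all 14 alternatives. CBP against WT did not pass at 60 h (95% interval of the log2 difference -0.28 to 0.21) or at 0 h (-0.22 to 0.27).

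Close to the MYF6 gene, MYF6 region 1 (721 bp from the lower end) had a relative pileup of 1.03 and 1.15 in CBP 0 h and 0.9 and 1.04 in WT 0 h. At 60 h it was called in WT replicate 1 only, with 0.686, and in neither CBP library. MYF6 region 2, inside the gene, was called in 3 libraries, with 0.625 in CBP 60 h replicate 1, 0.5 in WT 60 h replicate 2 and 0.809 in CBP 0 h replicate 1. MYF6 region 3 was called in WT 0 h replicate 1. MYF6 region 7 was called in both WT 0 h libraries (0.367 and 0.493) and in no other, so that it closed in WT 60 h against WT 0 h and in CBP 0 h against WT 0 h. Folds over the local background at MYF6 were 1.95 to 3.81 in the authors' lists, and the −log10 q was at most 11.8. By comparison, MYOD1 folds reached 7.87 and a −log10 q of 46.5.

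At MYF5, the region over the gene was open in every library. MYF5 region 3 (chromosome 5, 100753959 to 100756624) overlaps the upper end of MYF5 and had a relative pileup of 2.12 and 1.97 in CBP 60 h, 1.8 and 1.73 in WT 60 h, 1.93 and 1.88 in CBP 0 h, and 1.73 and 1.93 in WT 0 h. No comparison of its pileup passed. The log2 difference between the times had a 95% interval of -0.12 to 0.33 in CBP and -0.27 to 0.18 in WT. Its relative background was 3.55 and 3.71 in CBP 60 h, 2.87 and 2.86 in WT 60 h, 4.07 and 4.33 in CBP 0 h, and 3.83 and 3.58 in WT 0 h. The background was 0.774 times as high in WT 60 h as in WT 0 h (adjusted p = 0.000399) and 0.865 times as high in CBP 60 h as in CBP 0 h (adjusted p = 0.0120). The CBP call ended without CBP 60 h replicate 1 or CBP 0 h replicate 2 (adjusted p = 0.0752 and 0.102) and without a trend (adjusted p = 0.0570). At 60 h it was 1.27 times as high in CBP as in WT (adjusted p = 0.000699, with 14.8% of all regions higher), in all 14 alternatives.

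MYF5 region 1 (chromosome 5, 100741513 to 100742979), 10461 bp below the lower end, was lower in WT 60 h than in the other groups. Relative pileup was 0.781 and 1.03 in CBP 60 h, 0.543 and 0.567 in WT 60 h, 0.750 and 0.904 in CBP 0 h, and 0.800 and 0.806 in WT 0 h. Both WT 60 h values were below the other 6. CBP 60 h was 1.62 times WT 60 h (log2 0.70 ± 0.198, adjusted p = 0.01, with 11.7% of all regions higher). This call ended without CBP 60 h replicate 2 (adjusted p = 0.130) and under floor scaling (adjusted p = 0.0622). WT 60 h was 0.691 times WT 0 h (log2 -0.53 ± 0.198, adjusted p = 0.0381, with 7.86% of all regions lower). That call ended in 6 of the 8 fits without 1 library and under quantile normalization, with adjusted p from 0.0210 to 0.165 over all alternatives. In CBP the time difference was 0.13 on the log2 scale (adjusted p = 0.643), and the difference between the time effects did not pass (log2 0.66 ± 0.280, adjusted p = 0.191).

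The remaining MYF5 regions were narrow and seldom called. MYF5 region 2 was called in both WT 0 h libraries (0.383 and 0.269) and nowhere else. MYF5 regions 4 and 5, of 432 and 322 bp, were called in 1 library each, region 4 in WT 0 h replicate 2 (1.1) and region 5 in CBP 0 h replicate 1 (1.12). At regions 4 and 5 the relative background was 4.1 and 4.74, which with the 4.33 of region 3 were the highest of the 30 regions, and the authors' folds were 1.82 and 1.66.

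**Figure D4:**
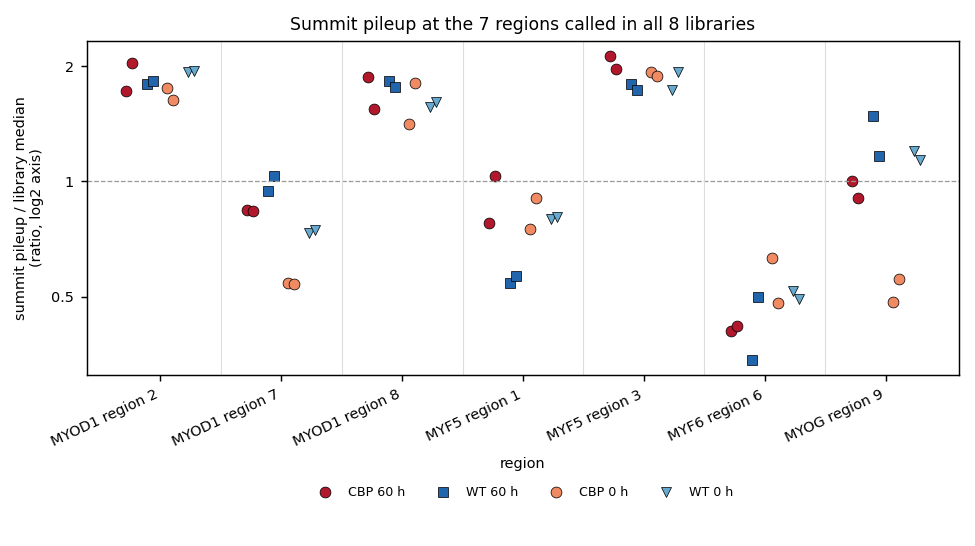
Summit pileup divided by the library's median (ratio, log2 axis) at the 7 regions called in all 8 libraries, each point 1 library, coloured by group. MYOD1 regions 2 and 8 and MYF5 region 3 lie between 1.41 and 2.12 in all libraries, while at MYOG region 9 CBP 0 h (0.485 and 0.558) is apart from the other libraries.

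At MYOD1, the region over the gene and the most distant region were called in every library, with pileups well above the median of constitutive regions in all groups. MYOD1 region 2 (chromosome 2, 41422502 to 41425001), as merged, covers the whole gene. Its called stretches began -0.02 to 0.452 kb from the lower end in the 0 h libraries. At 60 h the main stretch began at 0.991 to 1.021 kb, with another from 0.533 to 0.875 kb in CBP 60 h replicate 2. This difference in extent was not tested, and the fit covers the summit only. Relative pileup at region 2 was 1.72 and 2.03 in CBP 60 h, 1.8 and 1.83 in WT 60 h, 1.75 and 1.63 in CBP 0 h, and 1.93 and 1.94 in WT 0 h. MYOD1 region 8 (41458401 to 41459713), 34165 bp beyond the upper end, had 1.88 and 1.55 in CBP 60 h, 1.83 and 1.77 in WT 60 h, 1.41 and 1.81 in CBP 0 h, and 1.57 and 1.61 in WT 0 h. At region 8 CBP 60 h overlapped the other 3 groups, while both WT 60 h libraries were above both WT 0 h libraries. No comparison of the pileup passed at either region. The 95% interval of the log2 difference for CBP against WT at region 2 was -0.19 to 0.27 at 60 h and -0.43 to 0.04 at 0 h.

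MYOD1 region 7 (41449554 to 41450610) had a relative pileup of 0.844 and 0.839 in CBP 60 h, 0.943 and 1.03 in WT 60 h, 0.544 and 0.538 in CBP 0 h, and 0.733 and 0.746 in WT 0 h. All 60 h libraries were above all 0 h libraries. In CBP the ratio of 60 h to 0 h was 1.55 (log2 0.64 ± 0.190, adjusted p = 0.00676), a call that ended under floor scaling (log2 0.28, adjusted p = 0.335). In WT the ratio was 1.33, which did not pass (adjusted p = 0.0946), and the difference between the time effects did not pass either (adjusted p = 0.722). At 0 h the CBP to WT ratio of 0.732 did not pass (adjusted p = 0.310).

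MYOD1 region 5 (41434608 to 41436425) was the only one of the 30 regions closed in CBP 60 h against WT 60 h, where 3.19% of all regions closed and 4.01% opened. It had a relative pileup of 0.571 and 0.533 in WT 60 h, 0.485 and 0.423 in CBP 0 h, and 0.683 and 0.701 in WT 0 h, with no call in CBP 60 h. At the highest local background around MYOD1, a call in CBP 60 h needed 0.719 and 0.742, above all of these values. Where region 5 was called, its relative background was lower than that, at 0.519 to 0.863. Its background in CBP 60 h is not known, and whether its pileup was lower there was not tested. MYOD1 region 6, 21699 bp from the upper end, had 0.656 in CBP 60 h replicate 1 and no call in replicate 2, 1.03 and 0.667 in WT 60 h, 0.897 and 0.904 in CBP 0 h, and 1.08 and 1.03 in WT 0 h. MYOD1 region 1, 242 bp below the lower end, was called at 0 h only, with 0.853 and 1.02 in CBP and 1.00 in WT replicate 2. MYOD1 region 3 was called in 6 libraries and ranged from 0.353 in CBP 0 h replicate 1 to 1.23 in WT 60 h replicate 2, and MYOD1 region 4 was called in CBP 60 h replicate 1 alone.

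Around MYOD1 the local background showed no call that held in every alternative. At region 2 the relative background was 2.48 and 2.59 in CBP 60 h, 2.73 and 2.61 in WT 60 h, 2.40 and 2.38 in CBP 0 h, and 3.04 and 2.77 in WT 0 h. The ratio of CBP 0 h to WT 0 h was 0.822 (log2 -0.28 ± 0.0663, adjusted p = 0.0214), a call that ended in 7 of 14 alternatives, among them the fits without CBP 0 h replicate 1, CBP 0 h replicate 2, WT 0 h replicate 1 or WT 0 h replicate 2 (adjusted p = 0.103, 0.137, 0.317 and 0.0509). At region 8 the background in WT 60 h was 0.835 times that in WT 0 h (adjusted p = 0.0180), which ended without any of the 4 WT libraries in turn (adjusted p from 0.0567 to 0.108).

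**Figure D5:**
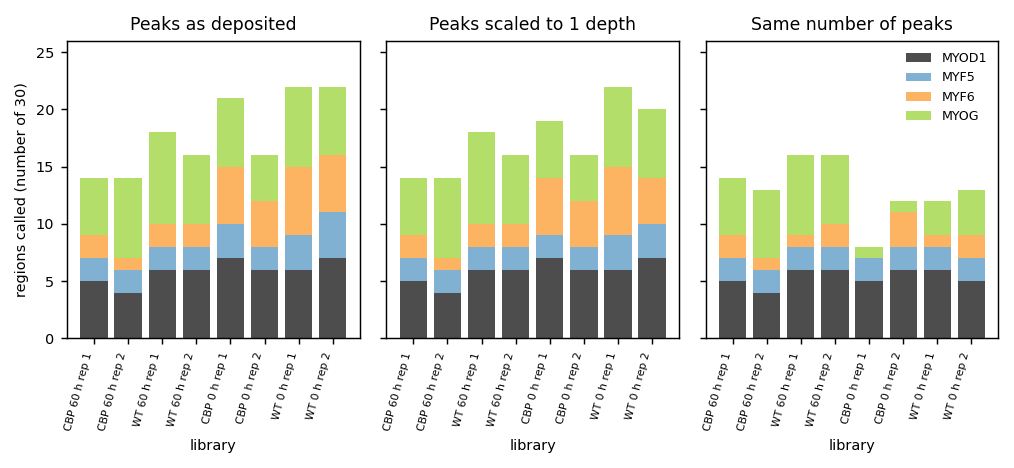
Number of the 30 regions called in each library, stacked by gene, for peaks as deposited, scaled to the depth of the shallowest library, and with equal peak numbers in all libraries. As deposited, the 60 h libraries have 14 to 18 and the 0 h libraries 16 to 22. With equal peak numbers they have 13 to 16 and 8 to 13.

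Summed over the 4 genes, 14 and 14 regions were called in CBP 60 h, 18 and 16 in WT 60 h, 21 and 16 in CBP 0 h, and 22 and 22 in WT 0 h. The mean was 15.5 ± 1.91 at 60 h and 20.3 ± 2.87 at 0 h (SD, n = 4 each), a difference of -4.75 that did not pass (two-sided exact permutation test, p = 0.0857, where the smallest possible is 0.0286). The number at 60 h was 0.765 of that at 0 h, and over all regions this ratio was 0.659. As a share of all called regions, the 30 made up 1.92 ± 0.279 per 10000 at 60 h and 1.65 ± 0.179 at 0 h (SD, n = 4 each, exact permutation p = 0.2). With peaks scaled to the depth of the shallowest library the difference in number was -3.75 (exact permutation p = 0.0857). With equal peak numbers in all libraries the order turned, to a mean of 14.8 at 60 h and 11.3 at 0 h (exact permutation p = 0.0571), and the share differed by 0.50 per 10000 (exact permutation p = 0.0286). Averaged over the times, CBP minus WT was -3.25 called regions, lower in CBP at each time, with labels exchanged within a time (exact permutation p = 0.0556, the smallest the 36 arrangements allow). As a share it was -0.368 per 10000 called regions (exact permutation p = 0.0556). Over all regions, 83814 and 82196 were called in CBP 60 h and 80521 and 76968 in WT 60 h. At 0 h, 130212 and 113293 were called in CBP and 120243 and 127323 in WT. Without CBP 0 h replicate 2 the difference between the times was -6.17 and passed (exact permutation p = 0.0286).

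By gene, MYF6 had 2 and 1 called regions in CBP 60 h, 2 and 2 in WT 60 h, 5 and 4 in CBP 0 h, and 6 and 5 in WT 0 h. The times did not overlap, nor did they over all regions (76968 to 83814 called at 60 h and 113293 to 130212 at 0 h). With peaks scaled to the depth of the shallowest library, the MYF6 means were 1.75 at 60 h and 4.75 at 0 h, again without overlap. Over all peaks the times did not overlap at that depth either (82696 to 88558 at 60 h and 120971 to 129457 at 0 h). With equal peak numbers the MYF6 mean was 1.5 at both times. MYOG had 5 and 7 in CBP 60 h, 8 and 6 in WT 60 h, 6 and 4 in CBP 0 h, and 7 and 6 in WT 0 h. Scaled to that depth, MYOG had 5 and 7 in CBP 60 h, 8 and 6 in WT 60 h, 5 and 4 in CBP 0 h, and 7 and 6 in WT 0 h, and the times still overlapped. With equal peak numbers it had 5 and 6 in CBP 60 h, 7 and 6 in WT 60 h, 1 and 1 in CBP 0 h, and 3 and 4 in WT 0 h, and the times no longer overlapped. MYOD1 and MYF5 numbers overlapped or touched between the times in each setting.

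Of the 30 regions, 4 closed in WT 60 h against WT 0 h (13.3%, against 15.1% of all regions) and 5 in CBP 60 h against CBP 0 h (16.7%, against 14.9%). In CBP between the times 1 opened, against 1.82% of all regions. In CBP 0 h against WT 0 h, 0 opened (2.51% of all regions) and 3 closed, MYF5 region 2, MYF6 region 7 and MYOG region 10 (10%, against 3.47%). By the highest local background around each gene, a call in CBP 0 h needed a relative pileup of 0.971 and 0.923 around MYF5 and 0.721 and 0.750 around MYF6. The WT 0 h values of MYF5 region 2 and MYF6 region 7 were below these. Their own relative background in WT 0 h was lower than the highest around each gene, at 0.632 and 0.692 for MYF5 region 2 and 0.876 and 0.941 for MYF6 region 7. Their background in CBP 0 h is not known, so the limits there are not known either. The missing CBP calls alone do not show a lower pileup, which was not tested. In CBP 60 h against WT 60 h, 0 opened and 1 closed. Regions that closed in CBP 60 h against CBP 0 h were MYOD1 regions 1 and 5 and MYF6 regions 1, 4 and 5.

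Of the 7 regions called in all libraries, the pileup fit gave 0 higher and 1 lower in WT between the times, where the shares over all regions were 21.8% and 7.86%. In CBP it gave 2 higher and 0 lower (30.7% and 12.2% of all regions). CBP 0 h against WT 0 h gave 0 higher and 1 lower (0.158% and 1.34%), CBP 60 h against WT 60 h 1 of each (11.7% and 10.3%), and the difference of the time effects 0 higher and 0 lower (1.69% and 1.95% of all regions, with 2 of the 7 at an unadjusted p under 0.05). For the local background, WT between the times had 1 higher and 4 lower (23.1% and 10.5% of all regions), and CBP 1 higher and 2 lower (31.5% and 15.5%). CBP 0 h against WT 0 h had 0 higher and 2 lower (1.25% and 2.88%), CBP 60 h against WT 60 h 2 higher and 1 lower (14.8% and 14.5%), and the difference of the time effects 1 higher and 0 lower (2.46% and 3.74%). MYF5 region 1 was among the lower ones in WT between the times (0.718 times, adjusted p = 0.00581) and among the higher ones in CBP 60 h against WT 60 h (1.32 times, adjusted p = 0.0160). The WT call ended without WT 0 h replicate 2 (adjusted p = 0.0650), and the 60 h call without CBP 60 h replicate 2 or WT 60 h replicate 2 (adjusted p = 0.110 and 0.0629) and under floor scaling (adjusted p = 0.0701).

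Among the genes around these factors, lists of upstream regulators, partners, inhibitors and targets were counted in the same way. The E proteins TCF3, TCF4 and TCF12, which pair with the myogenic factors, had 41 linked regions, of which 2 closed and 0 opened in WT between the times and 3 closed and 0 opened in CBP, or 4.88% and 7.32% closed against 15.1% and 14.9% of all regions. In CBP against WT at 60 h, 4 of the 41 closed (9.76%, against 3.19% of all regions) and 0 opened (against 4.01%), with 2 closed at TCF12 and 2 at TCF4. Inhibitors and competing factors, such as the ID proteins that bind E proteins away, had 160 regions, of which 18 closed and 0 opened in WT and 19 closed and 1 opened in CBP between the times. The closed shares were 11.2% in WT and 11.9% in CBP, against the same 15.1% and 14.9%. TWIST2, a bHLH repressor, had 6 closed of 19 in WT, and HEY1, a Notch target, had 3 of 14.

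Targets of the factors in muscle differentiation had 102 linked regions from 17 of 19 genes. In CBP between the times 7 opened (6.86%, against 1.82% of all regions) and 13 closed (12.7%, against 14.9%). In WT 1 opened (0.980%, against 0.654%) and 11 closed (10.8%, against 15.1%). In CBP 0 h against WT 0 h, 10 closed (9.80%, against 3.47%) and 3 opened (2.94%, against 2.51%), with 2 closed at the myosin light chain gene MYL1. ACTC1, a sarcomeric actin, had 2 opened of 10 in CBP between the times. Upstream regulators had 248 regions, of which 39 closed and 0 opened in WT between the times and 32 closed and 2 opened in CBP, closed shares of 15.7% and 12.9% that were near those of all regions. In CBP against WT, 3 closed (1.21%) and 8 opened (3.23%) at 60 h, and 8 closed (3.23%) and 6 opened (2.42%) at 0 h. None of these list shares was tested.

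The genes whose share of called regions followed that of a member most closely over the 8 libraries, after subtraction of the library's mean over 9307 genes, were CFDP1, TTC9 and ARL6IP5 for MYOG (Pearson r = 0.965, 0.960 and 0.955). For MYF6 they were SHAS2, PXDN and SMARCC2 (r = 0.983, 0.977 and 0.958), for MYF5 DHX30, KCNK18 and SLC4A7 (r = 0.967, 0.961 and 0.941), and for MYOD1 they included NFAT5 and MMP2 (r = 1.00 and 0.970). These are descriptions over 8 points with few regions per gene, and 14 to 41 genes exceeded r = 0.9 for each member.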

How the data were processed

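Peak lists of 8 ATAC-seq libraries were used. Per the submitters' processing notes, the authors trimmed reads with Trimmomatic and called peaks with MACS2 2.1.0 on Sscrofa11.1. The sources used here name no aligner, duplicate removal or read shift, steps that change pileups and peak edges. The authors deposited 1 list per library with a score, a fold enrichment ratio, a −log10 p and a −log10 q per peak, and the lowest q matches a threshold of 0.05. From the deposited fold and −log10 p, the summit pileup and local background were solved, giving a whole number for 100% of peaks (tolerance 0.01 in −log10 p). Depth was taken from the most frequent background of a library, its floor. Precision is limited by depth, and no read totals were used.

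A call is a peak overlapping the region. A region counted as opened if called in both libraries of the first group and neither of the second, and closed in reverse. Log2 pileup, and log2 local background (added after seeing the data), were centred on the library's median and fitted over 50575 regions with limma-trend (limma 3.58.1, R 4.3.3) over 4 groups, at an adjusted p threshold of 0.05. The fit was tested on simulated data with the same spread at all regions. Changes were placed in WT only, at regions with above-median pileup, so that test does not bear on regions of low pileup. Single values used exact permutation tests (Python 3.11.15). Members, lists and rules were chosen with earlier results of these data known. Regions named are those called in all libraries, within 1 kb of a gene end, or opened or closed, with the others added by range. Context genes are the up to 3 with most changed regions per list. Alternatives covered the peak threshold, peak number, depth, coverage, link distance, scaling, trend, replicates left out and a replicate block. No genome or promoter sequence was used here, so the planned motif search was not run. The unused value columns of unmapped samples number 0. A gene among those most like MYOD1 and a marker list are not reported here.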

Additional observations from a re-analysis of the deposited data

Results flagged for a closer look

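The time effect on the local background at MYOG region 9 was larger in CBP than in WT by 0.75 on the log2 scale (limma, adjusted p = 0.0138), and the difference between the groups' time effects is what marked it. At MYOD1 regions 2 and 7, both CBP 60 h libraries had a higher relative background than both CBP 0 h libraries. Both WT 60 h libraries had a lower one than both WT 0 h libraries. The opposite directions depended on scaling to the library's median. Divided by the floor, the background at region 2 was 4.88 and 5.30 in CBP 60 h and 5.99 and 5.97 in CBP 0 h. At region 7 it was 2.48 and 2.33 in CBP 60 h and 2.55 and 2.58 in CBP 0 h, so that CBP was lower at 60 h there too. On the median scale, the tested difference of the time effects was 0.21 at MYOD1 region 2 (limma, adjusted p = 0.195). It was 0.34 at MYOD1 region 7 (limma, adjusted p = 0.149), and neither passed.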

How the results depend on the processing

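The difference between 60 h and 0 h in the number of called regions reversed to 3.5 with equal peak numbers in all libraries, where the share difference rose to 0.50 per 10000, and was -1.75 (exact permutation p = 0.0286) with links within 1 kb. It kept its sign when scaled to the shallowest library (-3.75), at a −log10 q of at least 5 (-4.5), at 50% coverage (-5.75) and with links within 10 kb (-4). A replicate block, exchanging time within pairs of the same label and number, gave -4.75 and 0.28 per 10000 with an exact permutation p = 0.125 for each, the smallest that block allows, and it changed none of the limma calls. Same-numbered libraries did not deviate together (correlations from -0.041 to 0.049), so the numbers were not taken as pairs. Leaving out each library gave -6.17 to -4.17 for the number and 0.17 to 0.36 for the share.

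Counts of opened and closed regions were small and moved with most settings, and the cause was not tested. For WT between the times, the 1 opened and 4 closed regions became 0 and 2 at a −log10 q of at least 5, 0 and 0 with links within 1 kb, 1 closed with equal peak numbers and 7 closed at 50% coverage. For CBP between the times, opened regions were 2 at the stricter q, 4 with equal peak numbers, 2 when scaled to the shallowest library and 0 with links within 10 kb or 1 kb, and closed regions were 1 with equal peak numbers and 2 within 1 kb. For CBP against WT, closed regions at 0 h were 1 within 10 kb and 0 within 1 kb. At 60 h they were 2 at the stricter q and at 50% coverage and 0 within 10 kb and 1 kb, with 1 opened at the stricter q. Without 1 library, opened and closed counts were 1 to 2 and 5 to 6 for WT between the times, 1 to 3 and 5 to 7 for CBP between the times, 0 to 3 and 3 to 5 for CBP against WT at 0 h, and 0 to 1 and 1 to 3 at 60 h. These rise partly by construction, since a group then holds 1 library. Opened regions increased without either WT 60 h library (2) for WT, and without CBP 60 h replicate 1, CBP 60 h replicate 2 or CBP 0 h replicate 1 (2, 3 and 2) for CBP. For CBP against WT, 3 were closed at 60 h without CBP 60 h replicate 1, CBP 60 h replicate 2 or WT 60 h replicate 2, and 5 at 0 h without CBP 0 h replicate 1 or WT 0 h replicate 2.

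Of the 7 regions fitted for pileup, the number past the threshold was 2 under quantile normalization and 2 without a trend for WT between the times (1 as reported), and for CBP 60 h against WT 60 h it was 1 under quantile normalization, floor scaling and no trend (2 as reported). Without 1 library it was 0 to 1 and 0 to 2 in these comparisons, and 2 and 1, as reported, for CBP between the times and for CBP 0 h against WT 0 h. For local background, CBP between the times had 6 regions with floor scaling. CBP 0 h against WT 0 h had 1 under quantile normalization, floor scaling and no trend, and the difference of time effects had 0 under quantile normalization and floor scaling. Without 1 library these were 2 to 4, 1 to 2 and 0 to 1, and 2 to 5 for WT between the times and 2 to 3 for CBP 60 h against WT 60 h. No single-region difference that passed the threshold as reported changed sign in the alternatives. Differences that did not pass were not followed there. Among these, the local background of CBP between the times at MYOD1 regions 2 and 7 turned direction when divided by the floor.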
